A study of Mus musculus with 10 samples.

Results

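The natriuretic peptide system was measured through 7 genes in mouse heart ventricle. They were the peptide genes Nppa and Nppb, the receptor genes Npr1, Npr2 and Npr3, and the protease genes Corin and Furin. The members were all array probes whose accession maps to 1 of these symbols. Each gene had 1 probe, and the 7 genes are among 20140 named on the array. All 7 passed the filter on dim signals, so none was left untested.

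The hearts came from male mice. The 5 control mice, labelled Ctrl, had received no treatment, and the 5 treated mice were Ctrl mice given aldosterone for 7 days, each heart from its own animal. Strain, age and the dose of the hormone are not given in the sources used here. Ventricle RNA, in Cy5, was set against 1 pooled Cy3 reference of brain, kidney, liver, spleen and heart RNA on a 2-colour Agilent array. Scanner signals were analysed for 5 control and 4 aldosterone arrays, and aldosterone 4 entered through the deposited table of log2 ratios, which holds all 10 hearts. Values are log2 ratios of heart over reference, and differences are aldosterone minus control. The reference itself holds heart RNA, so a ratio is not an absolute level and the ratios of different genes are not comparable with each other.

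Nppa and Nppb encode the precursors of atrial and brain natriuretic peptide (ANP and BNP), hormones that heart muscle cells release when they are stretched and that promote sodium excretion and lower blood pressure. Corin, a serine protease on the surface of heart muscle cells, cleaves the ANP precursor, and furin, a protease of the secretory pathway, cleaves the BNP precursor and activates many other proteins. Both peptides act on the receptor encoded by Npr1, a guanylyl cyclase that makes cGMP. Npr2 encodes the related receptor for C-type natriuretic peptide, and Npr3 encodes the clearance receptor, which removes the peptides. Aldosterone, the adrenal steroid that makes the kidney retain sodium, acts in heart muscle cells and other cells through the mineralocorticoid receptor. The comparison asks which of these heart genes differ after aldosterone.

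Nppa and Nppb are neighbours on mouse chromosome 4, with no gene annotated between them in RefSeq. Because their 2 probes carry the largest differences among the members, promoter sequences of both are shown (RefSeq, GRCm38.p6, plus strand, 5′ to 3′). The capitals mark matches, on either strand, to 6 short core motifs, namely GATAA for the GATA factors, CATTCC for the TEAD factors, AAGTG for NKX2-5, TATAAA for a TATA box, AGAACA for 1 arm of a steroid receptor element and TCACACC for the T-box factors. The Nppa sequence is chr4:148000472-148000721, the 250 bases before the annotated start. The Nppb sequence is chr4:147985794-147985823, a stretch of 30 bases in the corresponding window with its 2 GATA cores and its TEAD core. The RefSeq gene record of Nppb begins before the start used for this window, so the stretch may lie within another transcript of the gene.
Nppa: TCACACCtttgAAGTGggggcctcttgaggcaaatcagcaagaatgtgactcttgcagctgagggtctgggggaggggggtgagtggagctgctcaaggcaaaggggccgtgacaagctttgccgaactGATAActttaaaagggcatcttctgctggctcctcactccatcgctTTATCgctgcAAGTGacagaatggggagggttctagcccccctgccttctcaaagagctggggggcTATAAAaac
Nppb: aGGAATGcagctGATAAatcagaGATAAcc

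Both peptide promoters held 2 GATAA matches, which 4.28% of 32841 RefSeq windows of 250 bases held at least that often. In Nppa they began 121 and 75 bases before the start, in Nppb 94 and 83 bases before it. The Nppa window also held 2 AAGTG matches, at 239 and 65 bases (1 or more in 40.7% of windows), and 1 TCACACC, at 250 bases (3.33%). The Nppb window held 1 CATTCC, on the minus strand at 105 bases (12.6%). Each held 1 TATAAA (12.4%), at 9 bases in Nppa and at 31 in Nppb. AGAACA, found in 16.1% of windows, was in neither, and among the other members it had 1 match, in Npr3. No match to any of the 6 motifs lay in the windows of Npr1, Npr2 and Corin. The 2 Furin windows held 4 AAGTG and 1 TATAAA, all in 1 of the 2. These matches describe letters, and no binding was measured.

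The share of the 39429 probes with a Cy5 signal clear of the background ran from 64.3% to 70.9% over the arrays, whose median local background was 57 to 59 units. Cardiomyocyte markers were all measured (9 of 9), with a mean log2 ratio between 1.18 and 1.47 in controls and between 1.30 and 1.48 with aldosterone. Of these markers, 7 were saturated in Cy5 on all 9 arrays and Ttn on 5, so their ratios are bounded by saturation. The arrays lay on 4 slides, each scanned once and each holding both groups. Controls occupied positions 1 and 4 of a slide and aldosterone hearts position 2, so position and treatment cannot be told apart. A principal component that carried 38.1% of the variance within groups split the arrays into 2 sets that cross the treatment groups. Controls 1, 3 and 4 and aldosterone 3 and 5 formed set 1. Controls 2 and 5 and aldosterone 1 and 2 formed set 2, to which aldosterone 4 belonged by the deposited table. The sets were defined from these data and no label names them.

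Both peptide genes had higher means in the aldosterone group, and neither passed adjustment over all probes. Nppa was 1.80-fold higher and Nppb 2.12-fold higher, and for both the lowest aldosterone heart lay within the control range. Of the 7 genes, 0 were called by limma with Benjamini-Hochberg adjustment over 26877 probes at a threshold of 0.05, where 0% of all probes were called. Nppa and Nppb were the 2 members with an unadjusted p under 0.05, both higher, against 6.11% of all probes (3.99% higher and 2.12% lower). The deposited table holds ratios from the same arrays with aldosterone 4 added, so it is no independent repeat. It gave an unadjusted p under 0.05 to the same 2 members, both higher, against 7.98% of all probes (4.59% higher and 3.39% lower). It called 0 members and 0.13% of all probes (0.119% higher and 0.0112% lower). The groups overlapped in all 7 genes in both sources. They were free of overlap in 1.37% of all probes higher and 0.651% lower on the scanner arrays, and in 1.27% and 0.64% in the table.

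Nppa, measured by 10 spots of 1 probe on each array, had log2 ratios of -1.54, -0.14, -1.69, -0.36 and -1.48 in controls 1 to 5. It was 0.04, -0.28, -0.24 and -0.32 in aldosterone 1, 2, 3 and 5. The controls thus fell into a low trio (1, 3 and 5) and a high pair (2 and 4), and the high pair lay within or beside the range read for the aldosterone hearts. Controls averaged -1.04 ± 0.73 (SD, n = 5) and aldosterone hearts -0.20 ± 0.16 (SD, n = 4). The difference was 0.84 (SE 0.31, 95% interval 0.17 to 1.52; limma adjusted p = 0.713), rank 24 of 26877 probes by size on the higher side. All 4 aldosterone arrays lay above the control mean.

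The deposited table gave the same order of groups. Its Nppa values were -1.26, 0.27, -1.34, 0.08 and -1.14 in controls 1 to 5, and 0.45, 0.09, 0.14, 0.29 and 0.03 in aldosterone 1 to 5. Aldosterone 4, absent from the scanner arrays, stood at 0.29. The difference over 5 hearts in each group was 0.88 (SE 0.33; limma adjusted p = 0.535), and all 5 aldosterone hearts lay above the control mean. This difference had rank 152 of 26877 probes by size on the higher side.

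The Nppa signal reached the top of the scanner's range on several arrays, which sets a limit on these values. All 10 spots were saturated in Cy5 on aldosterone 1 and aldosterone 3, and 8 of 10 on aldosterone 2 and on control 2, at readings of up to 65208 units. A saturated spot gives a lower limit of the signal, so the order of these hearts among themselves is not known. The small SD of the aldosterone hearts, and the SE, interval and p of the Nppa difference, rest in part on such limits. On control 4 and aldosterone 5 no spot was saturated, with median signals of 54506 and 57175 units. The low trio was far from the ceiling, at 24350, 26225 and 27621 units on controls 1, 3 and 5. The Cy3 signal of the reference at the same spots had a median between 27152 and 33939 units on the 9 arrays.

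**Figure D1:**
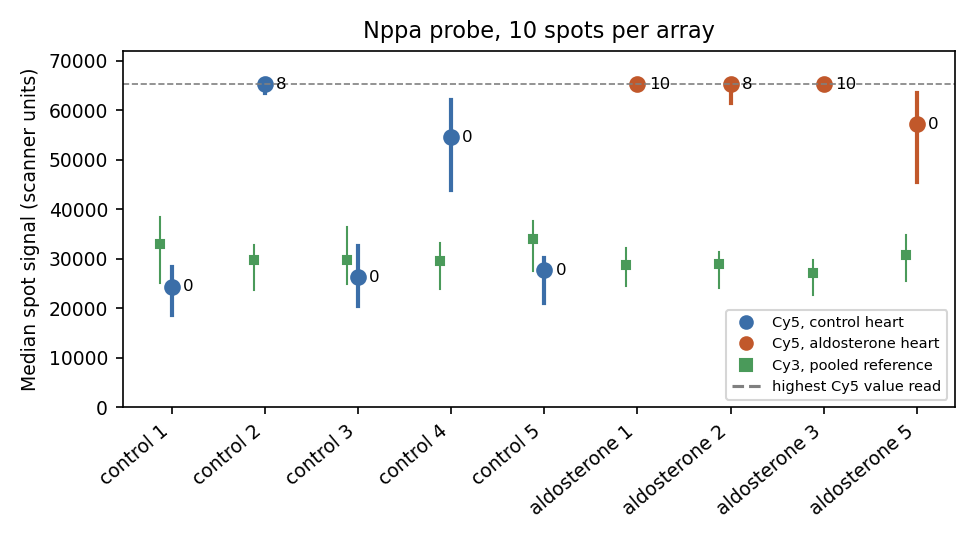
The median spot signal of the Nppa probe on each of the 9 arrays, in scanner units, with the heart in Cy5 (circles, blue for control and orange for aldosterone) and the pooled reference in Cy3 (green squares). Points are the median and lines the range of the 10 spots, the number beside each circle counts saturated Cy5 spots, and the dashed line is the highest Cy5 value read. The signals are shown before normalization, so they do not give the log2 ratios of the text directly. Controls 1, 3 and 5 have medians below those of the reference, and the other 6 hearts lie at or near the ceiling.

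On the partly saturated arrays the 2 unsaturated spots had higher log2 ratios than the saturated ones. On control 2 the scanner's log2 ratio was 0.44 on average over the unsaturated spots, against 0.11 to 0.36 over the saturated ones, and on aldosterone 2 it was 0.25 against -0.04 to 0.17. With saturated spots left out the difference was 0.95 (SE 0.46; limma adjusted p = 0.881), but it then rested on 4 controls and 1 aldosterone array. The unsaturated spots of control 2 and aldosterone 2 were marked as outliers by the scanner software and dropped out too.

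Nppb, read by 1 spot well below the ceiling on every array (3038 to 16757 units), was 1.82, 0.80, 2.35, 1.40 and 0.69 in controls 1 to 5. It was 2.59, 2.18, 2.26 and 2.94 in aldosterone 1, 2, 3 and 5. Every aldosterone heart lay above 4 of the 5 controls, and control 3 lay between aldosterone 3 and aldosterone 1. Controls averaged 1.41 ± 0.70 (SD, n = 5) and aldosterone hearts 2.49 ± 0.34 (SD, n = 4). The difference was 1.08 (SE 0.31, 95% interval 0.40 to 1.77; limma adjusted p = 0.515), rank 13 of 26877 probes by size on the higher side.

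The table gave Nppb as 2.13, 1.00, 2.58, 1.74 and 0.90 in controls 1 to 5, and 2.87, 2.38, 2.52, 2.13 and 3.099 in aldosterone 1 to 5. Aldosterone 4 was the lowest of its group and lay within 0.01 of control 1. The difference was 0.93 (SE 0.33; limma adjusted p = 0.514), with 5 of 5 aldosterone hearts above the control mean and 2 of 5 above every control. This difference had rank 119 of 26877 probes by size on the higher side.

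**Figure D2:**
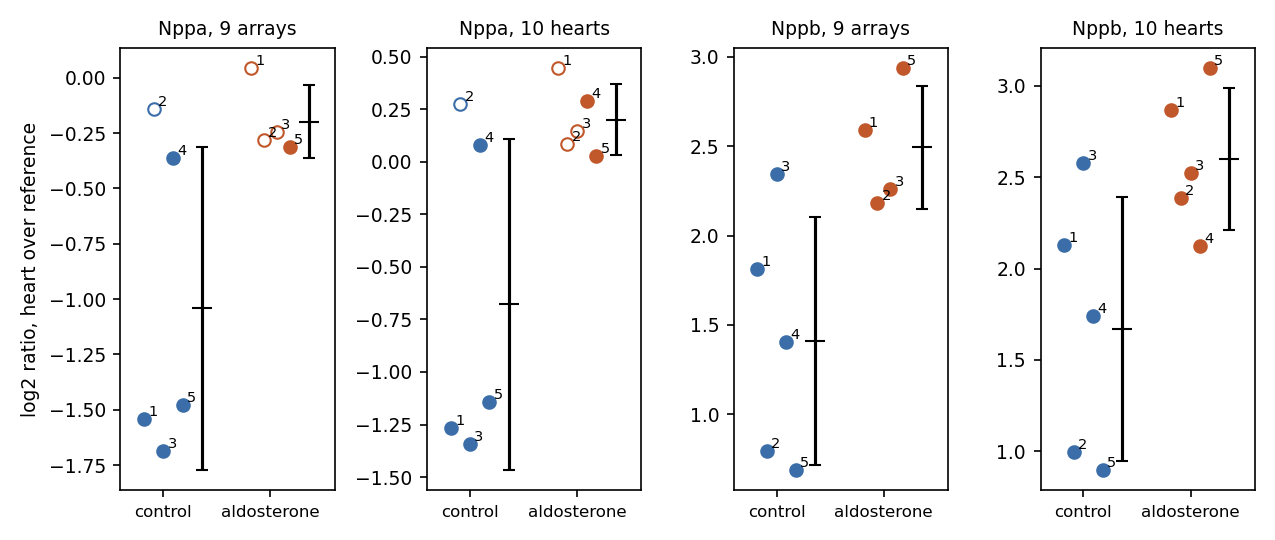
Log2 ratios of Nppa and Nppb in each heart, on the 9 scanner arrays and in the deposited table of 10 hearts, with the replicate number beside each point and the group mean ± SD as a bar. Open points mark hearts whose Nppa spots were saturated on the array, which is not known for aldosterone 4. For both genes the aldosterone hearts lie within and above the upper part of the control range, and for Nppa saturation bounds the range that could be read.

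The size of the peptide differences varied between slides. Slide 1 held 2 controls and 1 aldosterone array, and slides 2 to 4 held 1 array of each group. On slides 1 to 3 the aldosterone array had saturated Nppa spots, so those Nppa differences are bounded by saturation. Within slides 1 to 4 the Nppa difference was 0.89, 1.41, 0.12 and 1.17, higher on each slide, and it was 0.89 with slide as a block (limma adjusted p = 0.890). The Nppb difference was 1.28, -0.16, 0.86 and 2.25, so on slide 2 control 3 exceeded aldosterone 2, and it was 1.07 with slide as a block (limma adjusted p = 0.886). With heart set as a covariate Nppa differed by 0.82 (SE 0.30; limma adjusted p = 0.507) and Nppb by 1.15 (SE 0.23; limma adjusted p = 0.141). The sets were defined from these same values less their group means, so the SE and p of this fit are a description and no test. Within set 1 the Nppb means were 1.86 in 3 controls and 2.60 in 2 aldosterone hearts, and within set 2 they were 0.74 in 2 controls and 2.39 in 2 aldosterone hearts. In set 2 both aldosterone values of Nppb lay above both controls.

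Among the controls the 2 peptides did not follow the same order. Control 3 had the lowest Nppa and the highest Nppb of its group, and control 2 had the highest Nppa and the next to lowest Nppb. Control 5 was low in both. Over the 9 arrays the Pearson correlation of the 2 genes was 0.23 (exact permutation p = 0.536, adjusted over 3 relations 0.804) and Spearman's rho was 0.17 (exact permutation p = 0.678, adjusted 0.744). It was 0.57 without controls 1 and 3, which lay farthest from the median Nppa, and -0.46 on values less their group mean. No relation between the 2 peptides was thus shown over these hearts, with Nppa bounded at its upper end by saturation.

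**Figure D3:**
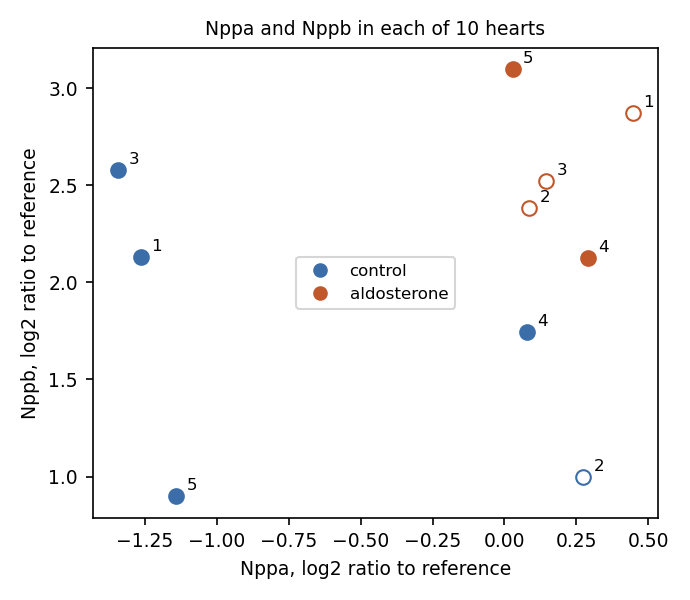
Nppb against Nppa in each of the 10 hearts, as log2 ratios to the reference from the deposited table, with the replicate number beside each point. Open points are hearts whose Nppa spots were saturated, which is not known for aldosterone 4. The 5 aldosterone hearts lie together at the upper right, and the 5 controls are spread over both axes.

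Nppa is a gene of the atria as well, so atrial tissue in a ventricle sample would bear on it. The mean of 11 atrial cardiomyocyte markers lay between -1.80 and -1.71 in controls and between -1.81 and -1.68 with aldosterone, a difference of 0.01. Of the list, 6 were higher and 5 lower, and 0 were called. The atrial light chain gene Myl7 and the sarcolipin gene Sln were well above background on all 9 arrays. Myl7 and Sln differed by 0.11 (SE 0.09) and 0.03 (SE 0.08). Dkk3 differed by 0.30 (SE 0.14) and Bmp10, a growth factor gene of the atria, by -0.15 (SE 0.09), and by 0.31 and -0.45 in the table. The atrial mean had a Pearson correlation of 0.27 with Nppa and -0.04 with Nppb over the 9 arrays (exact permutation, adjusted p = 0.804 and 0.933), with Spearman's rho of 0.13 and 0.28 (adjusted 0.744 for both). Without controls 1 and 3 the first was 0.05, and without controls 2 and 5 the second was 0.10. On values less their group mean they were 0.28 and -0.14. Over the 10 hearts of the table both had the opposite sign, -0.31 for Nppa and 0.18 for Nppb (permutation test, adjusted p = 0.608 for both), with Spearman's rho of -0.14 and 0.26 (adjusted 1.00 for both).

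Marker lists of several other cell types had unequal means in the 2 groups, with 0 members called. The 8 fibroblast markers had a mean of 0.21 to 0.75 in controls and 0.58 to 1.03 with aldosterone, a difference of 0.35, with 8 of 8 higher. The 7 measured red blood cell markers differed by a mean of 0.48 (6 of 7 higher; -2.91 to -1.98 in controls, -2.01 to -1.53 with aldosterone). Their median difference was 0.23. The largest were Hbb-bs (1.24), Hbb-b2 (1.06) and Alas2 (0.83), with Slc4a1 at 0.23. The globin genes Hba-a1 (0.03), Hba-a2 (-0.08) and Hbb-bt (0.06) were saturated in Cy5 on 8, 9 and 7 of 9 arrays, so their ratios are bounded by saturation. The 5 measured macrophage markers differed by 0.24 (5 of 5 higher; -1.92 to -0.93 in controls, -1.37 to -1.05 with aldosterone). The 7 adipocyte markers were lower by a mean of -0.24 (7 of 7; -0.66 to -0.30 in controls, -0.92 to -0.57 with aldosterone), and by -0.79 in the table. Cfd had the largest scanner difference, -0.99, while Plin1 differed by -0.08 and Lep by -0.01. Adipoq, Plin1, Lep and Cidec were well above background on only 5, 4, 4 and 7 arrays. In the table Cidec differed by -1.68, Cfd by -1.64 and Adipoq by -1.09. In these samples of whole tissue a change in the share of a cell type and a change in RNA per cell cannot be told apart, and the part of these lists in the peptide values was not tested.

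The genes most like each peptide over the 9 arrays, among 15198 named genes, are given as a description. For Nppa they were Adam22, a cell surface protein gene (Pearson r 0.98), Ndufb3, a subunit gene of respiratory complex I (0.97), Rgs17, a regulator of G protein signalling (0.97), Megf6 (0.97) and the Golgi mannosidase gene Man2a1 (0.95). In the deposited table of 10 hearts these 5 had r between 0.92 and 0.96 with Nppa. For Nppb they were Lyzl4 (0.95), Ckap4 (0.94), the transcription factor subunit gene Gtf2h3 (0.94), Bbs12 (0.94) and Aldh1a2, which encodes an enzyme of retinoic acid synthesis (0.94). Their r with Nppb in the deposited table was between 0.66 and 0.88. The lists share no gene, and with so many genes over 9 arrays high values arise among unrelated ones.

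The receptor genes had smaller differences than the peptides in both sources, and none passed. For the dim Npr1 and Npr3 the size depended on the background correction, so this order holds for the values as processed. With a normexp offset of 16 on the scanner arrays Npr1 differed by -0.26 and Npr3 by 0.21. With the larger offset used for the other scanner values they differed by -0.19 and 0.15. Nppa and Nppb differed by 0.86 and 1.09 with the offset of 16. Npr1 was close to background. Its Cy5 signal was 137, 143, 124.5, 99 and 154 units on controls 1 to 5 and 99, 98, 109 and 98.5 on aldosterone 1, 2, 3 and 5. It was well above background in Cy5 on all 9 arrays, and its Cy3 signal in the reference was not well above background on any. The level of the ratio was therefore set by the background correction.

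The Npr1 log2 ratio was 0.72, 0.93, 0.50, 0.41 and 0.92 in controls 1 to 5 and 0.59, 0.46, 0.57 and 0.39 in the aldosterone hearts in the same order as above. Controls 2 and 5 were highest, and every aldosterone heart lay within or just below the range of controls. The difference was -0.19 (SE 0.11, 95% interval -0.44 to 0.05; limma adjusted p = 0.910). It was -0.41 in the Cy5 channel alone (limma adjusted p = 0.490) and -0.34 with median centring in place of loess (limma adjusted p = 1.00). In the deposited table the same probe lay between 2.51 and 4.02, and it differed by -0.02 (SE 0.30, 95% interval -0.68 to 0.64; limma adjusted p = 0.996). A sign for Npr1 was not settled, since leaving out 1 heart turned it in the table for 5 of the 10 hearts, at values of up to 0.16.

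Npr2 was steady. It was -0.68, -0.64, -0.64, -0.59 and -0.80 in controls 1 to 5 and -0.70, -0.81, -0.64 and -0.69 in aldosterone 1, 2, 3 and 5. All 9 arrays lay within 1.17-fold of each other, the groups overlapped, and control 5 and aldosterone 2 were lowest. The difference was -0.04 (SE 0.06, 95% interval -0.18 to 0.09; limma adjusted p = 0.999), and -0.03 (SE 0.06; limma adjusted p = 0.941) in the table of 10 hearts. The interval spans folds from 0.884 to 1.07.

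Npr3, whose protein takes up the peptides, had a dim signal of 139 to 251 units in Cy5. Its log2 ratio was 0.09, 0.30, 0.19, 0.56 and 0.47 in controls 1 to 5 and 0.16, 0.61, 0.51 and 0.62 in the aldosterone hearts. Aldosterone 1 lay among the lower controls, while aldosterone 2 and 5 lay just above the highest. The difference was 0.15 (SE 0.12, 95% interval -0.11 to 0.42; limma adjusted p = 0.979), and 0.26 without aldosterone 1. Over the 10 hearts of the table it was 0.27 (SE 0.16, 95% interval -0.10 to 0.63; limma adjusted p = 0.751), with 4 of 5 aldosterone hearts above the control mean.

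**Figure D4:**
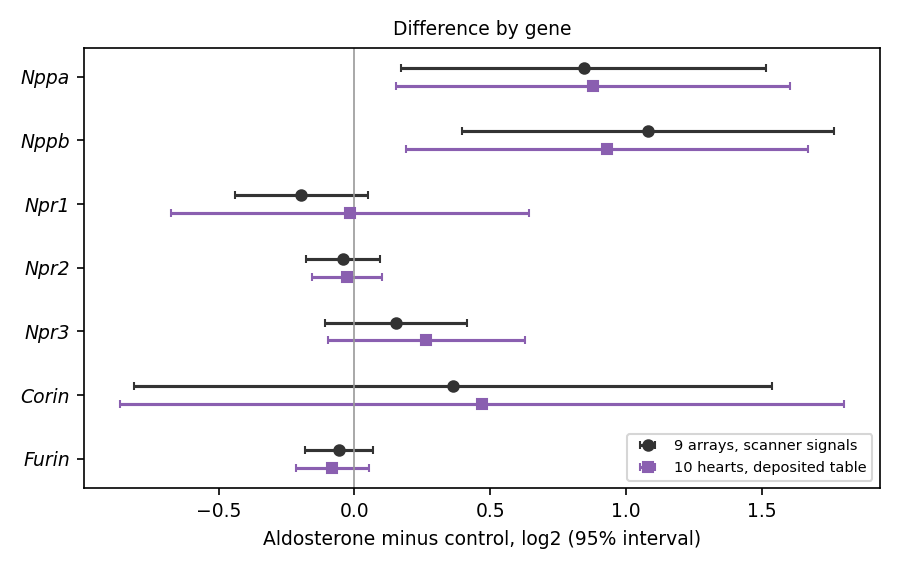
The difference between aldosterone and control hearts for each of the 7 genes on the log2 scale, with its 95% interval from limma, on the 9 scanner arrays (black circles) and in the deposited table of 10 hearts (purple squares). The intervals of Nppa and Nppb lie above 0 before adjustment, those of the other 5 genes include 0, and that of Corin is the widest.

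The 2 protease genes differed in their spread between hearts. Corin ranged over 6.25-fold among the 9 arrays and 8.01-fold among the 10 hearts of the table, and Furin over 1.15-fold and 1.17-fold. Neither differed between treatment groups beyond that spread.

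Corin was 0.26, 1.52, -0.74, -0.02 and 1.20 in controls 1 to 5 and 1.54, 1.91, -0.29 and 0.07 in aldosterone 1, 2, 3 and 5. High and low hearts were found in both groups, whose ranges overlapped, and 2 of the 4 aldosterone arrays lay above every control. The means were 0.45 ± 0.92 (SD, n = 5) and 0.81 ± 1.08 (SD, n = 4). The difference was 0.36 (SE 0.53, 95% interval -0.81 to 1.54; limma adjusted p = 0.999), so folds from 0.569 to 2.90 lie within the interval. Within slides 1 to 4 it was 0.65, 2.64, -0.27 and -1.12, and without aldosterone 2 it was -0.00332.

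The spread of Corin followed the 2 sets of hearts. In set 1 its log2 ratio lay between -0.74 and 0.26 (5 arrays), and in set 2 between 1.20 and 1.91 (4 arrays), a 3.21-fold difference of means with no overlap. In the deposited table set 1 lay between -0.50 and 0.71 and set 2 between 1.62 and 2.50, with aldosterone 4 at 1.62, a 3.45-fold difference. Of all probes, 11.2% did not overlap between the sets on the scanner arrays and 11.6% in the table. Corin had the second largest excess of set 2 over set 1 among the 26877 probes. The sets were defined from the same arrays, so these values are a description with no test. Within sets the treatment groups differed by 0.06 in set 1 and 0.36 in set 2, and with set as a covariate Corin differed by 0.20.

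**Figure D5:**
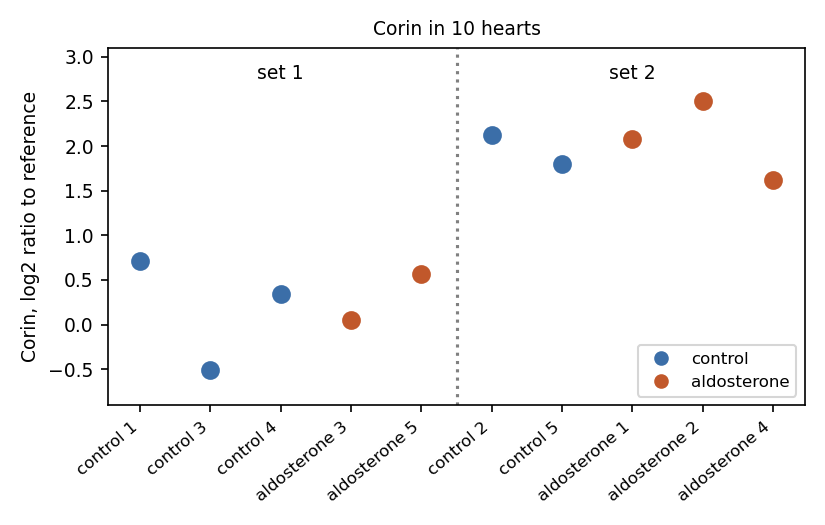
The log2 ratio of Corin to the reference in each of the 10 hearts from the deposited table, ordered by heart set and then by group (blue control, orange aldosterone). The 5 hearts of set 1 lie between -0.50 and 0.71 and the 5 of set 2 between 1.62 and 2.50, with both groups in each set.

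None of the other members separated the sets in both sources. Npr2 did not overlap between them in the table alone, at -0.55 to -0.47 in set 1 and -0.67 to -0.55 in set 2. On the scanner arrays Nppb was 0.665-fold in set 2 against set 1 and Nppa 1.29-fold, with overlap in both. Npr1, close to background, was 1.15-fold in set 2 on the scanner arrays and 1.63-fold in the table, again with overlap. High Corin and high peptide ratios did not always fall in the same hearts. Control 5 had high Corin and the lowest Nppb, and aldosterone 5 had low Corin and the highest Nppb. The genes most like Corin over the 9 arrays were Tmem65, Dus4l, Angpt1, which encodes the vessel growth factor angiopoietin 1, Mcur1, a regulator gene of mitochondrial calcium uptake, and Timm8a1, with r between 0.98 and 0.99. These 5 genes were named after their values were seen.

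Furin was -0.89, -0.91, -0.79, -0.83 and -0.85 in controls 1 to 5 and -0.93, -0.997, -0.82 and -0.89 in aldosterone 1, 2, 3 and 5. Aldosterone 1 and 2 lay just below the lowest control, and the other 2 lay among the controls. The difference was -0.06 (SE 0.06, 95% interval -0.18 to 0.07; limma adjusted p = 0.999), and -0.08 (SE 0.06; limma adjusted p = 0.802) in the table, where 3 of 5 aldosterone hearts lay below every control.

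Beyond the 7 genes, the relatives of the peptides and the enzymes that activate or degrade them were compared. Of 8 genes listed, 6 were tested and 0 were called in either direction, with a median difference of -0.02 against 0.00362 over all probes. In the table of 10 hearts 2 were higher and 4 lower, with a median of -0.12 against -0.00269. Nppc, the gene of C-type natriuretic peptide, and Ostn, whose product binds the clearance receptor, were not well above background on any array. Pcsk6, the protease that activates corin, differed by 0.17 (SE 0.08; limma adjusted p = 0.815). Ide, the insulin-degrading enzyme gene that also cuts natriuretic peptides, differed by -0.15 (SE 0.08), the peptidase gene Dpp4 by 0.11 (SE 0.07) and the meprin gene Mep1a by -0.09 (SE 0.08). Mme, the gene of neprilysin, which degrades ANP, was named for that role after its values were seen, at -0.61 ± 0.20 in controls (SD, n = 5) and -0.61 ± 0.25 in aldosterone hearts (SD, n = 4).

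Downstream of the receptors, 23 of 24 genes of cGMP signalling were tested, 0 were called, 14 were higher and 9 lower, and their median was 0.01 (0.08 in the table). The channel gene Trpc6 was not tested. Pde5a, a phosphodiesterase specific for cGMP, differed by 0.28 (SE 0.14, limma adjusted p = 0.856). Pde3b, which cGMP inhibits, differed by 0.22 (SE 0.08, limma adjusted p = 0.746). The soluble guanylyl cyclase subunit gene Gucy1a2 differed by 0.11 (SE 0.07) and the cGMP-dependent kinase gene Prkg1 by 0.12 (SE 0.10).

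Among 26 genes of transcription regulators known to act on the peptide genes, 26 were tested and 0 were called, with 15 higher, 11 lower and a median of 0.03 (0.02 in the table). Tead1, of the family that binds the CATTCC motif shown above for Nppb, differed by 0.23 (SE 0.08; limma adjusted p = 0.692). The T-box factor genes Tbx20 and Tbx3 differed by 0.14 (SE 0.06) and -0.20 (SE 0.11), and the histone deacetylase gene Hdac9 by 0.33 (SE 0.17).

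A list of 12 load-responsive and fetal cardiac genes, of which 11 were tested, had the highest median of the 4 lists, 0.23 (0.29 in the table), with 8 higher, 3 lower and 0 called. Tnni1 was well above background on 3 arrays and was not tested. Csrp3, the gene of the muscle LIM protein at the Z-disc, averaged 2.68 ± 0.03 over controls (SD, n = 5) and 3.104 ± 0.12 over aldosterone hearts (SD, n = 4). The difference was 0.42 (SE 0.07, limma adjusted p = 0.119). The lowest aldosterone array, at 2.97, lay above the highest control, at 2.73, which held in this direction for 1.37% of all probes. Over the 10 hearts of the table Csrp3 was higher by 0.48 (SE 0.06, limma adjusted p = 0.0390). It was the 1 gene called among the 4 lists, where 0.13% of all probes were called. The Csrp3 call was lost without any 1 of 8 hearts, all but controls 3 and 5, with limma adjusted p up to 0.129. The fit without aldosterone 4 is that of the 9 hearts with scanner arrays (0.0714). Ankrd1, a cardiac ankyrin repeat protein gene, differed by 0.43 (SE 0.19), with saturated Cy5 signals on 3 arrays. Xirp2 and Fhl1, which encode proteins associated with the contractile apparatus, differed by 0.23 (SE 0.11) and 0.34 (SE 0.17). The 3 lower genes were Myh7 (-0.31, SE 0.34; -0.38 in the table), Actn1 (-0.05) and Xirp1 (-0.02; 0.04 in the table). Acta1 had the largest difference on the scanner arrays, 0.63 (SE 0.37), with saturated Cy5 signals on 5 arrays. Acta1 and the 3 lower genes were named after their values were seen. An earlier analysis of these data had shown the direction of several genes of this list, so its median is no independent evidence.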

How the data were processed

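Spot intensity values of 9 arrays were deposited as scanner output of Agilent Feature Extraction 10.7.3.1, per the submitters' processing notes. Per the file headers, LogRatio is log10 (Cy5 over Cy3). It served for single Nppa spots after conversion to log2. The authors' deposited table of 10 hearts is on a log2 scale and follows the scanner's ratio, with r from 0.996 to 1.00 and 82.7% to 86.6% of probes within 0.001 of it. No centring was seen, with column medians from -0.01 to 0.12. Median signals were corrected with normexp (offset 50) after local backgrounds that strayed over 20 units from their array's median had been set to it, then normalized by loess within arrays (R 4.3.3, limma 3.58.1). Control spots and spots marked as outliers were left out, saturated spots were kept, and spots of 1 probe were averaged. Accessions matched to RefSeq records (GRCm38.p6) named 26575 of 39429 probes. Probes with Cy5 well above background on at least 4 arrays were tested (26877), with limma's two-sided test and Benjamini-Hochberg adjustment. The same probes were tested in the table.

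Members and gene lists were chosen with earlier results of these data known. In each pathway list the 4 genes of smallest p and any gene called are named, and the 5 genes most like Nppa and Nppb. Each list gene is its probe of highest mean Cy5 signal. The number of arrays limits the precision. Alternatives covered background correction, normalization, saturated spots, filters, slide, heart set, replicate number and leaving out each heart.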

Additional observations from a re-analysis of the deposited data

Results flagged for a closer look

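Of 28 groups of hearts examined for a single distant value, 1 had one, where chance gives about 1 in 20 such groups. It was Npr3 in the deposited table, where aldosterone 1, at 1.00, lay below the other 4 aldosterone hearts, which ranged from 1.49 to 1.68. Its gap to the nearest of them was 0.719 of the group's range, just above the critical value of 0.71 for 5 hearts. On the scanner arrays aldosterone 1 was also the lowest of its group for Npr3, at 0.16 against 0.51 to 0.62, where the same ratio did not pass the critical value for 4 arrays. Without aldosterone 1 the difference of Npr3 in the table was at the upper end of its range over left-out hearts, which ran from 0.18 to 0.38.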

How the results depend on the processing

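No member was called under any of 24 alternatives of the scanner fit or 16 of the table. Leaving out each heart in turn, Nppa differed by 0.68 to 1.07 and Nppb by 0.90 to 1.32 on the scanner arrays, and by 0.71 to 1.12 and 0.74 to 1.16 in the table. Single slides moved them most: Nppa was 1.41 on slide 2 and 0.12 on slide 3, Nppb -0.16 on slide 2 and 2.25 on slide 4, and the cause was not tested. With replicate number as a block Nppa differed by 1.01 and Nppb by 1.08 (limma adjusted p = 0.493 and 0.596). Whether the numbers mark pairs cannot be decided from these values. Same-numbered hearts deviated from their group means with correlations from -0.21 to 0.27. The best match of each control was an aldosterone heart of another number, at only 0.11 to 0.31. Over all probes, calls on the scanner arrays went from 0 to 8 with Agilent's processed signals, 6 with heart set as a covariate, 2 with the replicate block and 0 to 12 without 1 heart (12 without control 3 or 5). The heart sets were defined from these same values, so the 6 calls are a description and no test. In the table they went from 35 to 10 without a filter on dim probes, 15 in the 9 hearts with scanner files, 0 with the replicate block and 2 (without aldosterone 3) to 57 (without control 5). Signs turned for Npr2 in Cy5 alone (0.026), for Corin without aldosterone 2 (-0.00332; 0.73 at most without another heart), and for Npr1 in the table without control 1, 2 or 5 (0.05, 0.16, 0.09) or aldosterone 3 or 5 (0.10, 0.02; -0.21 at the least without another heart). Within single slides signs also turned for Npr1 (0.16 on slide 3), Npr2 (0.11 on slide 4), Npr3 (-0.03 on slide 1, -0.05 on slide 3), Furin (0.00929 on slide 3) and Corin (slides 3 and 4). The correlation of Nppa with the atrial mean was -0.31 in the table, and that of Nppb was 0.18 there and 0.10 without the 2 hearts farthest from the median. The call of Csrp3 in the table was lost in 11 of 16 alternatives, with the replicate block among them (limma adjusted p = 0.320). The 9 hearts with scanner files and the table without aldosterone 4 are the same fit, counted separately among the 16. Aquantile left ratios as they were. Npr1 and Npr3 lie near background, and saturation bounds Nppa.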
